A study of Mus musculus with 6 samples.

Results

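The regions described here were 1540 promoter regions that the peak lists of TGFβ-treated mouse mammary cells held at 2 h and at 12 h and that the vehicle list lacked, of 39435 regions in the union of the 3 lists. They were chosen by list presence. Peaks of at least 150 bp were joined across gaps under 1000 bp, first in each list and then over the lists, and a union region was kept when it held a 2 h and a 12 h region, no vehicle region, and lay within 1000 bp of the 5′ end of an annotated transcript (a start site). These promoter regions were 13.5% of the 11449 union regions at a start site, and nothing is read from that share, since list presence selected them. Of the other start-site regions, 8781 were in all 3 lists and are called shared promoters below. The 9706 regions of both TGFβ lists only that lay farther than 1000 bp from any start site are called distal regions.

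The lists come from ATAC-seq, which uses the transposase Tn5 to cut and tag accessible DNA, in NMuMG, a line of mouse mammary epithelium for which the labels give no genetic change. All 3 groups were held without serum and insulin for 6 h. Treatment followed, with vehicle (buffer with bovine serum albumin) for 2 h or with 5 ng/ml TGFβ1 lasting 2 h or 12 h, and with 2 biological replicates in each group that the authors joined into 1 list per group. Vehicle cells were taken at 2 h only, so time and TGFβ cannot be told apart at 12 h. With 1 list per group there is no spread between replicates and no test between groups, and the intervals given below are 95% intervals that cover counting error only, over regions that are neither replicates nor independent.

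The vehicle list was the shortest, with 18994 distinct intervals against 36867 at 2 h and 36874 at 12 h. Its regions were also narrower. In the shared promoters the median width was 744 bp in the vehicle list, 951 bp at 2 h and 990 bp at 12 h, and 84.6% of them were narrower in the vehicle list than at 12 h. When both TGFβ lists were cut by width to the length of the vehicle list, 690 regions met the rule in place of 1540. The read depth behind a peak is not part of the lists. Read counts that the authors report per replicate were not used. By those counts, both vehicle replicates had more filtered reads than both 12 h replicates. Against the 2 h replicates, the first vehicle replicate had more and the second had fewer. The part of depth in the lengths of the lists was not tested. Absence from the vehicle list thus means that no reproducible peak was listed there, not that the promoter was closed. Of 12 epithelial marker genes, Krt8, Krt18, Krt19 and Grhl2 had a vehicle region at a start site, Cdh1 and Cldn4 had a region in both TGFβ lists only, and the other 6 had none in any list. None of 7 immune, 5 endothelial and 4 adipocyte markers had a start-site region in any list. Of 5 fibroblast markers Pdgfra had a vehicle region, and of 5 neuronal markers Snap25 was among the promoter regions described here and Syn1 was in 1 TGFβ list.

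A promoter is the stretch of DNA around a transcription start site on which RNA polymerase II and its general factors assemble. In mammals many promoters lie in CpG islands, stretches rich in the dinucleotide CG that are usually unmethylated and accessible in many cell types, whereas CpG-poor promoters tend to belong to genes of particular tissues or signals. TGFβ binds a pair of receptor kinases that phosphorylate SMAD2 and SMAD3, and in epithelial cells it can start the epithelial-mesenchymal transition, in which junction genes such as Cdh1 (E-cadherin) fall and matrix and cytoskeleton genes rise. AP-1, a dimer of JUN and FOS family proteins, often acts beside SMAD proteins, and Snail and ZEB factors bind the E-box CACCTG in the Cdh1 promoter.

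The stretch of 250 bp just upstream of the start site is shown for 6 of the promoter regions on the mm9 (NCBIM37) assembly. It runs 5′ to 3′ on the strand of the gene. These 6 were chosen as examples of the motif matches and CG content described after the sequences. Capitals mark matches, on either strand, to the AP-1 site TGACTCA or its variant TGAGTCA, to the E-box CACCTG and to the SP/KLF box GGGCGGG. Cdh1 and Cldn4 encode junction proteins, Mmp13 a collagenase and Krt16 a keratin, while Tgfb1 encodes the TGFβ1 ligand itself and Wnt9a a secreted WNT ligand. Each stretch lay inside its promoter region over all 250 bases and overlapped no annotated exon.
Cdh1 (chr8:109127001-109127250, plus strand): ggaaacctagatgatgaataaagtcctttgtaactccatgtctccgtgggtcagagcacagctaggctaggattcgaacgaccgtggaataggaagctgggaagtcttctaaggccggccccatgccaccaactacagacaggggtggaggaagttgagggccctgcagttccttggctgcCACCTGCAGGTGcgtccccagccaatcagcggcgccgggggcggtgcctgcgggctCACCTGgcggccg
Cldn4 (chr5:135422805-135423054, minus strand): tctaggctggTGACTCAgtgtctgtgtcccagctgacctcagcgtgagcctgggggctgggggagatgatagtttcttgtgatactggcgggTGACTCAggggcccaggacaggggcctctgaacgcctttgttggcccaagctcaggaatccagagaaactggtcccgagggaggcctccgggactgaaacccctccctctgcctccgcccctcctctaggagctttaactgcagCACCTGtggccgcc
Mmp13 (chr9:7272264-7272513, plus strand): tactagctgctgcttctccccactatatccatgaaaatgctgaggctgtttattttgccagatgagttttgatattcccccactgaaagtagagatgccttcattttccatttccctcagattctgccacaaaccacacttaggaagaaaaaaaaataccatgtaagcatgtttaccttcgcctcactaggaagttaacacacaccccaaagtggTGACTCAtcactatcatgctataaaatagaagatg
Krt16 (chr11:100110277-100110526, minus strand): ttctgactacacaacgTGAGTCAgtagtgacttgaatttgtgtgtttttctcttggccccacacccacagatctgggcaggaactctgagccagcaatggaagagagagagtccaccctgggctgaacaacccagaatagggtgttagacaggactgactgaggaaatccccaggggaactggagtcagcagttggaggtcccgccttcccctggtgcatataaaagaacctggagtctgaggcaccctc
Tgfb1 (chr7:26471771-26472020, plus strand): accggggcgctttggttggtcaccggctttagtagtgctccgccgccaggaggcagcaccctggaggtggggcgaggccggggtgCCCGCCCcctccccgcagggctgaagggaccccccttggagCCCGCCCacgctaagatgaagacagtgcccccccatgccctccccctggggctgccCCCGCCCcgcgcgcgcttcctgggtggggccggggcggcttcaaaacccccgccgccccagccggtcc
Wnt9a (chr11:59120180-59120429, plus strand): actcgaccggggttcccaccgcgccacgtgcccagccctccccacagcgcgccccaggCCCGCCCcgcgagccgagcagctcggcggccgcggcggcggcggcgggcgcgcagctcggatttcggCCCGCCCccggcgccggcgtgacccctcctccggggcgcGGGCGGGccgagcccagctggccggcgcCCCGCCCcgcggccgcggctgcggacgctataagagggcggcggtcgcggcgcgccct
The Cdh1 stretch held 3 E-boxes, of which the pair at 69 to 58 bases upstream of the start site abuts without a gap and the last starts 13 bases upstream. Cldn4 held 2 AP-1 matches, the nearer of them starting 158 bases upstream, and 1 E-box starting 14 bases upstream. The AP-1 match of Mmp13 starts 35 bases upstream and that of Krt16 starts 234 bases upstream. These 2 stretches had 1 and 2 CG dinucleotides, whereas Tgfb1 had 21 and Wnt9a had 48, with 3 and 4 SP/KLF boxes. The boxes of Tgfb1 and Wnt9a lay outside the central window of 500 bp in which motifs were counted. That window held none of the motifs searched at either region. Over all 86879 annotated start sites, windows of 500 bp held an AP-1 match in 6.53%, the E-box in 35.3% and an SP/KLF box in 30.0%. A match is a description of the letters and not evidence of binding.

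The promoter regions were narrow. Their median width was 597 bp at 2 h (range 150 to 3565 bp) and 634 bp at 12 h (range 152 to 3095 bp), against 951 and 990 bp in the shared promoters and 448 and 498 bp in the distal regions. In 1304 of 1540 the region was a single interval in both TGFβ lists. They also rested on fewer listed peaks, since 17.6% of them at 2 h and 15.3% at 12 h came from a single line of the list, against 2.65% and 1.95% of the shared promoters. The median overlap between the 2 h and the 12 h region was 77.7% of their joint length, against 87.6% in the shared promoters, and 20 promoter regions had no base in common between 2 h and 12 h.

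From 2 h to 12 h the widths moved little as a group. The difference of 12 h minus 2 h had a median of 16.0 bp, and 864 of 1540 promoter regions (56.1%, from 53.6 to 58.6%) were wider at 12 h, beside 57.0% over all 26400 union regions of both TGFβ lists. Large moves were more common among the promoter regions than over all regions in both directions. At least 1.5-fold wider at 12 h were 249 (16.2%, from 14.4 to 18.1%), against 11.5% of all regions, and at least 1.5-fold narrower were 147 (9.55%, from 8.18 to 11.1%), against 7.09%. The distal regions, which were also narrow, had 17.2% and 8.58%.

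**Figure D1:**
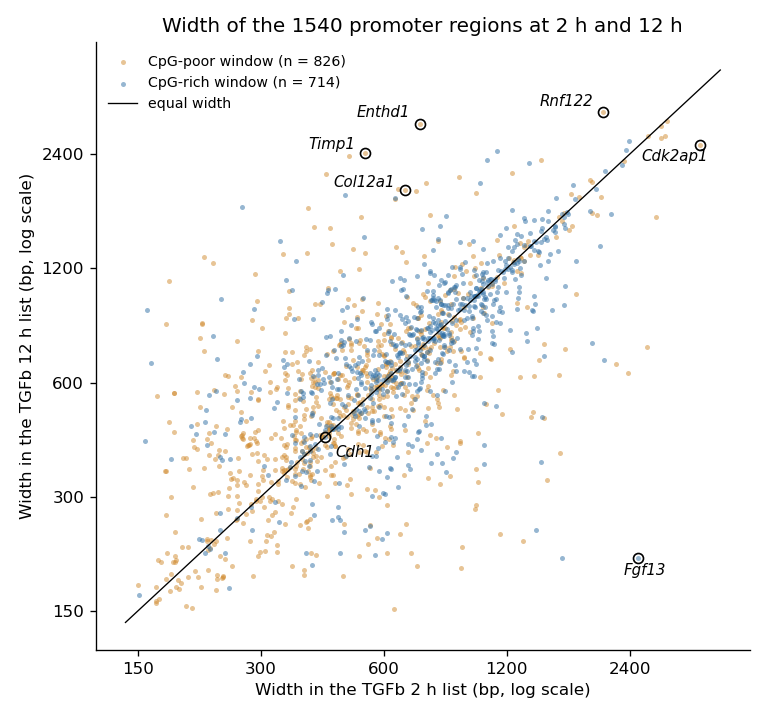
Each point is 1 of the 1540 promoter regions, placed by its width in base pairs in the TGFβ 2 h list (x axis, log scale) and in the TGFβ 12 h list (y axis, log scale), with colour for CpG-rich or CpG-poor central windows and a line for equal width. Most points lie near the line, Cdh1 is on it at 431 bp, Timp1 and Enthd1 lie far above it, and Fgf13 far below.

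The widest promoter region at 12 h was that of Rnf122, a RING finger protein, at chr8:32221900-32224998, which covered 2070 bp at 2 h and 3095 bp at 12 h. Rai1, a transcriptional regulator, had 2963 bp and 2932 bp, and Bag2, a co-chaperone of HSP70, had 2936 bp and 2687 bp. Sgms1, a sphingomyelin synthase, had 2665 bp and 2684 bp, Pcolce2, an enhancer of procollagen processing, had 2859 bp and 2654 bp, and Rap2c, a RAS-related GTPase, had 2395 bp and 2596 bp. Cdk2ap1, a regulator of CDK2, had the widest region at 2 h, 3565 bp, and 2543 bp at 12 h. All regions named in this paragraph changed by less than the 1.5-fold used above.

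The largest gain in width was at Enthd1 (chr15:80390499-80393383), from 736 bp to 2885 bp. Timp1, a secreted inhibitor of matrix metalloproteinases on the X chromosome, followed, from 540 bp in 1 interval to 2422 bp in 3 intervals, and then Nacc1, a transcriptional repressor, from 493 bp to 2370 bp. The largest loss was at Fgf13, an intracellular member of the fibroblast growth factor family, from 2520 bp in 3 intervals to 207 bp in 1. Col27a1, a fibrillar collagen, went from 2651 bp to 743 bp and the uncharacterised gene 2010003K11Rik from 2372 bp to 635 bp. In each of these 6 the number of joined intervals changed or was above 1 in a list, so that width also reflects how many neighbouring peaks were listed.

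The share of start-site regions of both TGFβ lists that the vehicle list lacked fell with width and then levelled off. These 10321 regions were put in 10 width classes of equal size. In the narrowest class (152 to 520 bp at 12 h), 52.9% were missing from the vehicle list. The share was 27.8% in the next class, 8.24% in class 5 and 7.75% in class 6, and it was 6.20, 6.20, 6.20 and 6.58% in the 4 widest classes. Among those 4 classes, of at least 1038 bp, 260 of 4129 regions were missing (6.30%, from 5.60 to 7.08%). The same count for the other lists came out far lower: of the 4 widest classes of start-site regions of the vehicle and 12 h lists, 0 of 3525 were missing at 2 h, which allows up to 0.109%, and of those of the vehicle and 2 h lists, 4 of 3551 were missing at 12 h (0.113%, from 0.0438 to 0.289%). Both of these counts start from regions in the vehicle list, which was the shortest and had the narrowest regions. Low counts were thus likely beforehand, and they give no yardstick for the 6.30%. Wide shared promoters were narrower in the vehicle list, where their median width was 78.2% of that at 12 h, and the part of this in the missing regions was not tested. An incomplete vehicle list and promoters that lacked a peak under vehicle cannot be told apart from these lists, and this holds also for the wide regions named next.

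**Figure D2:**
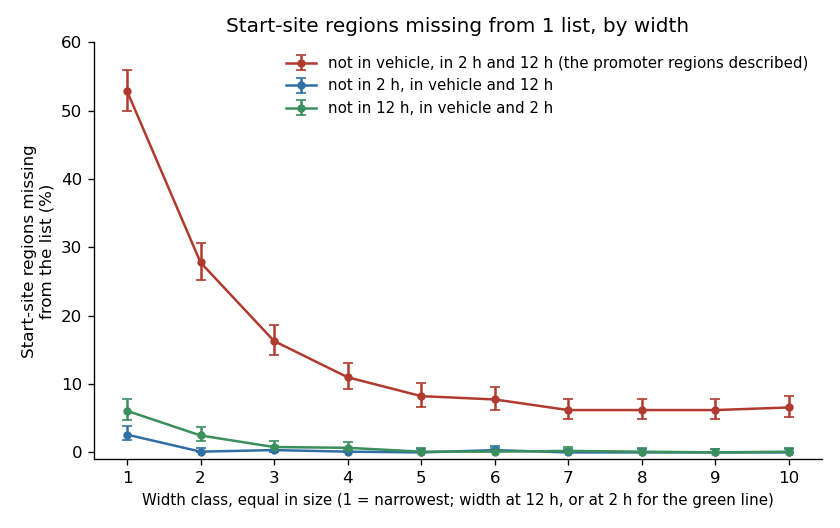
Share of start-site regions missing from 1 list among those present in the other 2 (y axis, percent, with 95% Wilson intervals), by width class from narrow to wide (x axis). Missing from the vehicle list falls from 52.9% to a level near 6% over the 4 widest classes, while missing from the 2 h or the 12 h list is near 0 there. The 2 h and 12 h lines start from regions in the shorter vehicle list, so the lines are not a like comparison.

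Most of the 260 wide promoter regions, 164 (63.1%), had CpG-rich windows (defined below), against 81.7% of the shared promoters of that width, and 127 were a single interval in both TGFβ lists, 113 of those CpG-rich. Their nearest vehicle region lay at a median of 32717 bp. Examples of wide single intervals, named after their values were seen, were Baz1a, a subunit of ISWI chromatin remodelers, with 1768 bp at 2 h and 1832 bp at 12 h, Clk3, a kinase of splicing factors, with 1740 bp and 1985 bp, and Chd4, the ATPase of the NuRD complex, with 1557 bp and 1514 bp. The nearest vehicle region was 121738 bp from Baz1a, 55622 bp from Clk3 and 13534 bp from Chd4. By GC content, the share missing from the vehicle list among the wide regions was 14.2% (from 10.8 to 18.4%) below 50% GC, lowest from 60 to 70% GC at 4.02% (from 3.13 to 5.16%), and 7.27% (from 5.56 to 9.45%) at 75% GC or more.

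A start site lay inside 1175 of the promoter regions (76.3%) against 96.6% of the shared promoters, a difference of -20.3 percentage points (from -22.6 to -18.2), and the promoter regions were also narrower. The centre lay at a median of 23.2 bp downstream of the nearest start site, against 24.0 bp in the shared promoters. Of those with no start site inside, 107 lay up to 249 bp away, 92 from 250 to 499 bp and 166 from 500 to 1000 bp. Start sites on both strands, as at divergent promoters, were near 8.38% of them against 19.8%. A protein_coding gene was at the start site of 1361 (88.4% against 96.9%), and of the remaining 179, 64 were at a processed transcript, 45 at a lincRNA, 24 at a pseudogene and 15 at a miRNA gene.

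Part of the promoter regions were further start sites of genes that had a listed promoter under vehicle. Of the 1361 with a protein_coding gene, 962 (70.7%) held the most upstream start site of the gene, against 90.5% of the shared promoters (difference -19.8 percentage points, from -22.4 to -17.4). In 305 (22.4%, from 20.3 to 24.7%) a further start site of the same gene, over 1000 bp away, lay at a vehicle region, against 9.21% (from 8.61 to 9.84%) of the shared promoters, a difference of 13.2 percentage points. Among genes that had a further start site at all the shares were 35.9% and 16.3%. In 234 of the 305 the promoter region was at an internal start site, and in 71 it held the most upstream one. The remaining 1056 (77.6%) had no vehicle region at a further start site, 512 of them because the gene had no start site more than 1000 bp away.

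Where a gene had both, the promoter with a vehicle region was usually the wider of the pair. Presence in the vehicle list chose the pair, and narrow regions lacked it more often, so this order was likely beforehand. Over 315 pairs of a gene and a promoter region the other promoter had a median width of 746 bp in the vehicle list, 947 bp at 2 h and 990 bp at 12 h, against 539 bp and 551 bp for the promoter region found only with TGFβ, and it was the wider at 12 h in 241 pairs (76.5%). The median distance between the pair was 18179 bp. Yap1, the coactivator of the Hippo pathway, had 488 bp and 583 bp at an internal start site, and 1644, 1695 and 1705 bp under vehicle, at 2 h and at 12 h at the other promoter. Ltbp1, which anchors latent TGFβ in the matrix, went the other way: its upstream promoter, seen only with TGFβ, had 1671 bp and 1530 bp, while the other promoter had 479, 558 and 779 bp.

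By CpG content the promoter regions stood between the shared promoters and the distal regions and split into 2 kinds. A window of 500 bp at the centre of the region was called CpG-rich when its ratio of observed to expected CpG was at least 0.6 and its GC content at least 50%. CpG-rich were 714 of the 1540 (46.4%, from 43.9 to 48.9%), against 81.1% of the shared promoters and 1.41% of the distal regions. Over all 86879 annotated start sites the share was 36.6%, below that of the promoter regions. The difference from the shared promoters was -34.8 percentage points (from -37.4 to -32.1), and it was there at every width: 25.9 against 35.3% in the narrowest of 5 width classes (152 to 395 bp at 12 h) and 64.4 against 82.8% in the widest. With the 5 width classes balanced between the sets it was -21.6 points (from -24.6 to -18.6). The median ratio of observed to expected CpG was 0.569, against 0.816 in the shared promoters and 0.190 in the distal regions.

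**Figure D3:**
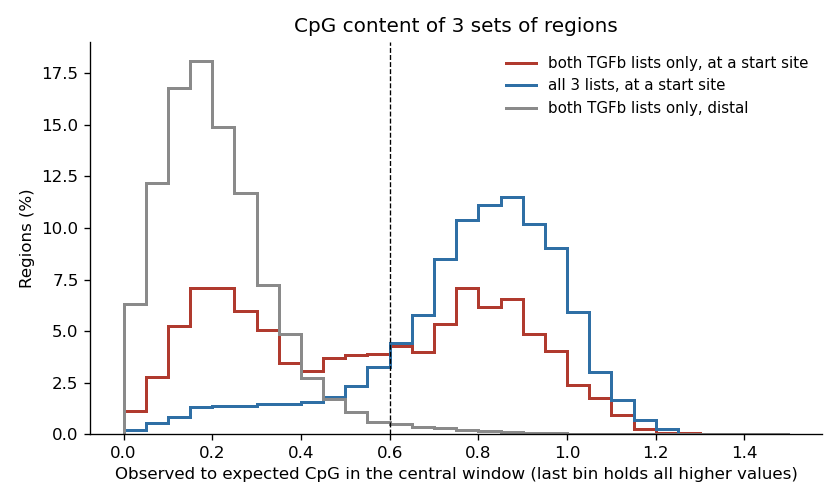
Distribution of the ratio of observed to expected CpG (x axis) over 1540 promoter regions of both TGFβ lists only, 8781 shared promoters and 9706 distal regions (y axis, percent of each set). The promoter regions have a low and a high group on either side of the dashed line at 0.6, whereas most shared promoters are above it and nearly all distal regions below.

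The CpG-rich and the CpG-poor promoter regions also differed in width and position. CpG-rich regions were wider, with medians of 727.5 bp at 2 h and 759.5 bp at 12 h, against 492.5 bp and 545.5 bp in the 826 CpG-poor regions. A start site lay inside 94.7% of the CpG-rich and 60.4% of the CpG-poor regions, and of those with a protein_coding gene 89.3% and 51.4% held its most upstream start site. A further start site of the gene was at a vehicle region in 10.4% of the CpG-rich and 34.8% of the CpG-poor regions. Both kinds were wider at 12 h in about the same share, 55.2% (from 51.5 to 58.8%) and 56.9% (from 53.5 to 60.2%).

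Of the motifs searched, AP-1 differed most in ratio between the promoter regions and the shared promoters. It was in the 500 bp window of 314 promoter regions (20.4%, from 18.5 to 22.5%), against 6.81% of the shared promoters (difference 13.6 percentage points, from 11.6 to 15.7) and 51.6% of the distal regions. The difference was found in the CpG-poor windows, 33.9 against 18.8% (difference 15.1 points, from 11.4 to 18.9), and was not detectable in the CpG-rich windows, 4.76 against 4.03% (difference 0.733 points, from -0.686 to 2.60). These 2 differences themselves differed by 14.4 points (from 10.3 to 18.4). With widths balanced the AP-1 difference was 10.4 points (from 8.04 to 12.8), and among the 4 widest of the 10 width classes it was 3.91 points (from 0.946 to 8.02). Within CpG-poor windows the promoter regions still held AP-1 less often than the distal regions (52.2%, difference -18.3 points, from -21.6 to -14.8).

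The motif of TEAD factors, the DNA-binding partners of YAP (ACATTCC), was in 6.88% of the promoter regions and 4.00% of the shared promoters, a difference of 2.89 points (from 1.65 to 4.31) that was 1.53 points (from -0.163 to 3.22) with widths balanced. The E-box CACCTG was in 35.0 against 30.7% (difference 4.29 points, from 1.75 to 6.89), and the difference was 0.711 points (from -2.33 to 3.75) with widths balanced. The SMAD palindrome GTCTAGAC was in 9 promoter regions (0.584%) and 0.319% of the shared promoters, a difference of 0.266 points whose interval holds 0 (from -0.0452 to 0.797). The GRHL motif AACCGGTT, of grainyhead-like factors of epithelia, was in 5 promoter regions (0.325%) and 0.285% of the shared promoters. Over all annotated start sites these 4 motifs were in 5.68, 35.3, 0.359 and 0.246% of windows.

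The other motifs searched were less common in the promoter regions than in the shared promoters. The SP/KLF box was in 36.1% against 58.9% of the shared promoters (difference -22.8 points, from -25.3 to -20.1, and -13.6 points with widths balanced), and the ETS motif CCGGAAGT in 4.16 against 9.75% (difference -5.59 points, from -6.69 to -4.32). The CRE motif TGACGTCA, bound by CREB and ATF proteins, was in 1.75 against 3.69% (difference -1.94 points, from -2.62 to -1.07), and CCAAT, bound by NF-Y, in 37.0 against 42.2% (difference -5.17 points, from -7.76 to -2.52). The SP/KLF difference was smaller when only CpG-rich windows were set side by side, 58.7 against 66.4% (difference -7.69 points, from -11.5 to -3.97). Over all start sites the shares were 30.0% for SP/KLF, 4.49% for ETS, 2.00% for CRE and 47.1% for CCAAT.

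**Figure D4:**
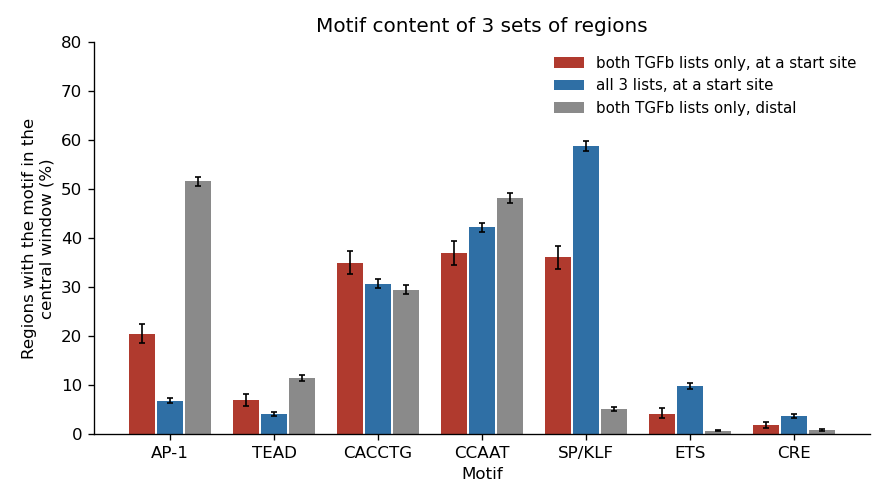
Share of regions with each motif in the central window (y axis, percent, with 95% Wilson intervals) for 1540 promoter regions of both TGFβ lists only, 8781 shared promoters and 9706 distal regions. AP-1 and TEAD shares of the promoter regions lie between those of the other sets, nearer to the shared promoters for AP-1 (20.4, 6.81 and 51.6%), and SP/KLF and ETS shares lie between them as well.

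Of 22238 protein_coding genes, 1380 (6.21%) had such a promoter region at a start site, 1085 of them with no vehicle region at any start site, while 9383 (42.2%) had a vehicle region and 11236 (50.5%) no region in any list. The gene lists below were chosen with earlier results known, and their counts are given beside that 6.21% without a test. The share of genes with no region in any list was 71.4% for keratins, 4.35% for MAPK feedback genes and 0% for YAP targets. The 6.21% does not allow for such differences between lists. Among genes of cell junctions 7 of 58 (12.1%) had a promoter region, and none of the 7 had a vehicle region at another start site. Cdh1, which encodes E-cadherin of adherens junctions, had 431 bp at 2 h and 431 bp at 12 h at chr8:109127000-109127458, with the nearest vehicle region 11218 bp away. The claudins of tight junctions Cldn4 (318 bp and 430 bp) and Cldn23 (875 bp and 946 bp) were listed too, as were Pvrl1 (nectin-1, 835 bp and 913 bp), the desmosomal Pkp1 (377 bp and 570 bp) and Cldn2 (255 bp and 197 bp).

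Keratins had 3 of 21 (14.3%). Krt80 had 687 bp and 671 bp, and Krt16, a keratin of stressed epithelia whose stretch with AP-1 is shown above, had 585 bp at both times. The promoter region of Krt19 lay 708 bp from the start site, with 276 bp and 322 bp, and a vehicle region of 1512 bp was at the gene's other start site. Transcription factors of epithelia had 5 of 26 (19.2%). Foxa1, a pioneer factor of glandular epithelia, had 1519 bp and 1696 bp, and Tcfap2a (AP-2α) went from 1139 bp to 2449 bp. Prdm1, a repressor, had 562 bp and 479 bp, and the ETS factor Ehf had 384 bp and 389 bp. The 2 h and the 12 h region of Ehf lay side by side, with no base in common.

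Genes of the matrix and its proteases had 11 of 59 (18.6%), and none of these 11 had a vehicle region at another start site. Besides Timp1, the collagen genes Col12a1 (677 bp and 1929 bp) and Col7a1 (541 bp and 1315 bp) were wider at 12 h. Col4a1 and Col4a2, which encode the chains of basement membrane collagen and share a divergent promoter, had a common region of 1220 bp and 826 bp, and Loxl4, a collagen cross-linking oxidase, had 951 bp and 841 bp. Mmp13, a collagenase whose AP-1 match near the start site is shown above, had 399 bp and 489 bp with no vehicle region within 87435 bp. AP-1 was in the central window at Timp1, at Mmp13 and at both promoter regions of Col7a1, of which the internal one had 246 bp and 630 bp. The remaining genes were Lamb3, Plau, Mmp11 and Timp3.

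Integrins had 5 of 26 (19.2%). Itgb2 had 408 bp and 969 bp, and Itgb4, the hemidesmosome integrin, had 810 bp and 390 bp. Itgb3, a receptor for vitronectin, had 895 bp and 669 bp, while Itga2b (860 bp and 912 bp) and Itgb5 (380 bp and 420 bp) had vehicle regions of 961 bp and 1134 bp at another start site. The 2 h and the 12 h region of Itgb5 had no base in common, and the nearer lay 861 bp from a start site. Genes of actin and stress fibers had 9 of 52 (17.3%), and 7 of these 9 had a vehicle region at another start site. Vehicle regions at a start site were also frequent over the whole actin list, at 69.2% of its genes against 43.1% of the junction and 30.5% of the matrix genes, and the difference between lists was not tested. Tpm1, which encodes a tropomyosin, had 726 bp and 780 bp beside another promoter of 702, 721 and 716 bp under vehicle, at 2 h and at 12 h. Cald1 (caldesmon) had 602 bp and 775 bp beside 1264, 1092 and 1497 bp, and Mylk, the myosin light chain kinase, had 657 bp and 595 bp beside 215, 537 and 411 bp. Rhoc, a small GTPase, had 473 bp and 761 bp beside 759, 710 and 721 bp. The 2 without a vehicle region were Pdlim1, with 424 bp and 976 bp, and Flnc (filamin C), with 387 bp and 407 bp.

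Genes of the TGFβ pathway had 6 of 52 (11.5%). Among ligands, Tgfb1 had 990 bp and 834 bp at chr7:26471726-26472715, and Gdf11 had 821 bp and 815 bp. Tgfb1 had another start site at a vehicle region of 721 bp, and its nearest vehicle region was 1296 bp away. Bmpr1a, a type I receptor for bone morphogenetic proteins, had 1456 bp and 1405 bp, and the coreceptor Eng had 573 bp and 608 bp at 820 bp from a start site. Bmp1, a procollagen protease, had 844 bp and 797 bp. Growth factors and cytokines had 9 of 54 (16.7%): the WNT ligands Wnt9a (1988 bp and 1947 bp) and Wnt7b (638 bp and 1835 bp), Angptl4, a secreted regulator of lipoprotein lipase (1581 bp and 1456 bp), Vegfb (1285 bp and 1043 bp), the vasoconstrictor Edn1 (520 bp and 618 bp), the chemokine Ccl2 (600 bp and 517 bp), and the growth factors Fgf1 (1009 bp and 355 bp) and Fgf9 (252 bp and 378 bp) and the cytokine Lif (364 bp and 344 bp). Wnt7b, with 1 interval at 2 h and 2 at 12 h, and Fgf9 were at least 1.5-fold wider at 12 h. The listed width at Fgf1 was at least 1.5-fold smaller at 12 h. However, its 2 h region (chr18:39026268-39027276) and its 12 h region (chr18:39028064-39028418) had no base in common.

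Transcription factors of the epithelial-mesenchymal transition had 2 of 29 (6.90%), Runx2 and Tcf4, while 21 of the 29 (72.4%) had a vehicle region. Runx2 had 1002 bp and 1015 bp. Feedback genes of MAPK signaling had 3 of 23 (13.0%), the phosphatases Dusp14 (2296 bp and 2241 bp) and Dusp2 (755 bp and 705 bp) and the early response factor Egr3 (263 bp and 264 bp). The list of YAP targets and Hippo pathway genes had 3 of 20 (15.0%), Jub (Ajuba, 1036 bp and 1241 bp), the receptor kinase Axl (729 bp and 654 bp) and Yap1. Cell cycle regulators had 1 of 20, Ccnd1 (cyclin D1), with 2 separate promoter regions, of 386 and 372 bp and of 409 and 211 bp. Ribosomal protein genes had 0 of 83, and 73 of them (88.0%) had a vehicle region.

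**Figure D5:**
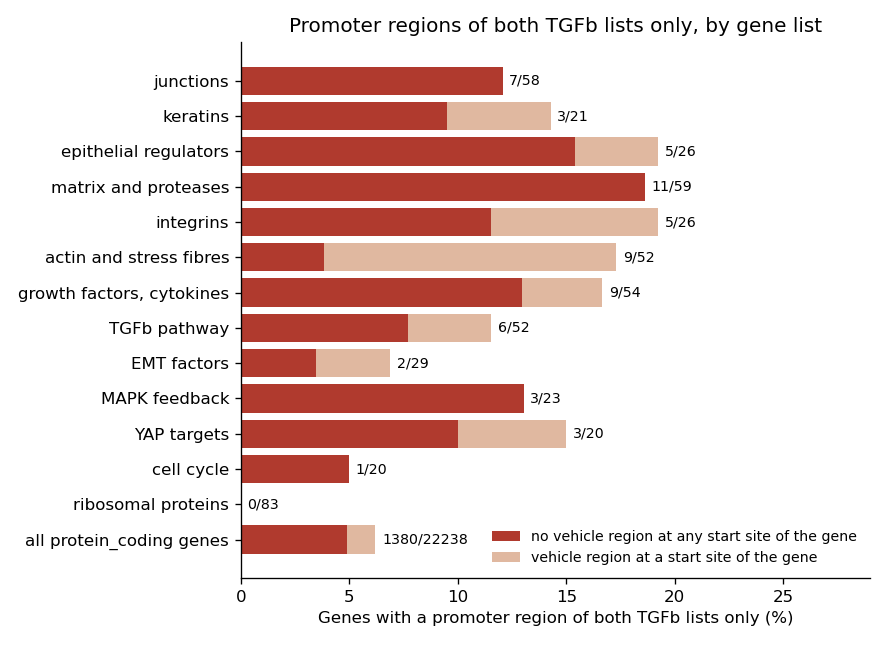
Share of the genes of each list with a promoter region of both TGFβ lists only (x axis, percent, with the count beside each bar), split by whether another start site of the gene had a vehicle region. Of the genes counted, none of the 11 matrix and 7 junction genes and 7 of the 9 actin genes had one, and the bottom bar gives all 22238 protein_coding genes at 6.21%. Of all these genes 50.5% had no region in any list, a share that differed between the gene lists.

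The promoter regions were spread over all 20 chromosomes that carried peaks, in unequal shares. They made up 8.17% of the start-site regions of chromosome 16 (from 5.75 to 11.5%), the lowest share, and 21.6% of those of the X chromosome (77 of 357, from 17.6 to 26.1%), the highest, followed by chromosome 14 (20.9%) and chromosome 4 (18.8%). Among wide regions of both TGFβ lists (at least 1038 bp at 12 h) the same chromosomes were at the ends, with 1.36% missing from the vehicle list on chromosome 16 (2 of 147, from 0.374 to 4.82%) and 14.4% on X (14 of 97, from 8.80 to 22.8%).

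Distances to neighbouring regions varied widely, and by the rule no vehicle region lay closer than 1000 bp. The nearest vehicle region was at a median of 23560 bp, within 10 kb for 427 and beyond 100 kb for 214. The nearest other promoter region of the same kind was at a median of 253697 bp. Neither distance was measured for another set of regions. A distal region of both TGFβ lists only lay within 10 kb of 15.4% of them, against 11.4% of the shared promoters, and the median distances were 52646 bp and 61039 bp. At the limits of the rule, the region farthest from a start site was that of Acpl2, at 1000 bp, and the nearest region left out was at 1009 bp (chr11:21126011-21126649). The promoter region closest to a vehicle region was at Stag2, a cohesin subunit on the X chromosome, 1001 bp away, and the narrowest at 2 h was at Gm10778, with 150 bp. A vehicle interval of 103 to 149 bp, below the minimum width, lay within 1000 bp of 22 promoter regions.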

How the data were processed

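ATAC-seq libraries of 3 groups were analysed as peak lists, 1 per group. The authors ran the ENCODE pipeline for ATAC-seq on mm9, with MACS2 2.1.2 (version per the submitters' processing notes) as peak caller, and used the irreproducible discovery rate to keep peaks found in both replicates. The deposited peak positions (chromosome, start, end) were used. The score deposited with the vehicle list has no stated scale and was not used, and the same column numbers the lines in both TGFβ lists. Read depth is not part of the lists.

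Distinct intervals of at least 150 bp were merged across gaps under 1000 bp, within lists and then over the 3 lists. Start sites came from the 5′ ends of GENCODE vM1 transcripts (86879 positions, NCBIM37). Coordinates are 1-based. Widths are summed region widths in a list. Motifs were exact matches on both strands in the central 500 bp window. Shares have 95% Wilson intervals and differences 95% Newcombe intervals. No test between groups was possible. The members and gene lists were chosen with earlier results of these data known. Named genes were the 8 widest at 12 h, up to 6 per gene list by width, the 3 largest rises and falls, and the regions nearest the limits of the rule. Other names (wide single intervals, Mmp13, Cldn2 and the remaining list genes) were added after their values were seen. Some list genes, and the AP-1 family list, are not reported here. Symbols of 3 list genes were matched through RefSeq synonyms and Cebpd was not matched. Functions were tested on simulated data. Python 3.11.15, numpy 2.4.6, pandas 2.3.3 and matplotlib 3.10.9 were used.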

Additional observations from a re-analysis of the deposited data

How the results depend on the processing

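No paired analysis was possible because each group has 1 list made from both replicates. For the same reason no replicate could be left out. When both TGFβ lists were cut to the length of the vehicle list by width, 690 regions met the rule in place of 1540, while gap, width and start-site limits gave 1175 to 1956. The share of promoter regions whose gene had another start site at a vehicle region was 20.0% when that start site had to lie inside the vehicle region. The CpG-rich difference from the shared promoters was -31.4 points in windows of 200 bp, -28.6 with stricter limits (ratio 0.75, GC 55%) and -21.6 with widths balanced over 5 bins. In windows of 200 bp the differences were 9.77 points for AP-1, -2.55 for ETS, 1.25 for TEAD and -12.7 for SP/KLF. With widths balanced they were 10.4 for AP-1, 0.711 for CACCTG, 1.53 for TEAD, -0.117 for the SMAD palindrome, -13.6 for SP/KLF and -7.81 for CCAAT. In CpG-poor windows they were -2.41 for ETS, -10.1 for SP/KLF and -9.38 for CCAAT. Settings chosen after seeing the data gave -18.5 points for CpG-rich windows and 3.91 for AP-1 in the 4 widest of 10 width classes, and 5.13% of wide regions missing from the vehicle list when only single intervals were counted. The sign changed for the SMAD palindrome, whose interval held 0, and for no other difference listed here. The other 31 of 52 values stayed within the interval, or for counts within 1.5 times, of the value given. The cause of these shifts was not tested. The lists hold no depth, so a region missing from the vehicle list cannot be told from one below its threshold or from one that an incomplete list left out.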
